A study of Mus musculus with 4 samples.

Results

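The levels of 10 genes of cellular iron handling were followed across colonies grown from mouse blood progenitors: the uptake genes Tfrc, Steap3 and Slc11a2, the mitochondrial importer gene Slc25a37, the ferritin genes Fth1 and Ftl1, the ferritin-turnover gene Ncoa4, the iron sensor gene Ireb2, the exporter gene Slc40a1, and Slc11a1, which moves iron out of phagosomes. They were chosen by name, from knowledge of the pathway, and all 10 were among the 14323 genes of the deposited table. All 10 also passed the filter on low values, a mean of at least 1 normalized count over the 4 libraries, which kept 11370 genes.

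The study measured RNA from colonies by RNA-seq, with 1 library for each of 4 groups of C57BL/6 cells. Short-term haematopoietic stem cells (ST-HSCs, which rebuild blood for a limited time) and MPP2 cells (multipotent progenitors biased to megakaryocytes and red cells) were each grown with 0.05 µM 4-hydroxytamoxifen (4OHT), marked in the labels as conditionally expressing MLL-ENL, a leukaemia fusion protein, or with ethanol, marked as control. All 4 groups came from the study's model mouse and grew from 100 plated cells over 5 to 7 days, in methylcellulose that held the cytokines GM-CSF, IL-3, IL-6 and SCF. The labels do not name the allele that carries the fusion or the protein that 4OHT acts on, and no group received 4OHT without the fusion, so effects of the drug and of the fusion cannot be told apart. With a single library per group, a difference between libraries could not be checked against replicates and has no p-value.

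Cells take up iron as transferrin bound to the transferrin receptor, release and reduce it in endosomes, and send it to mitochondria for heme and iron-sulfur clusters or into ferritin shells for storage. Ferroportin, the Slc40a1 protein, is the known exporter of iron from mammalian cells, and macrophages use it to return iron from eaten red cells to the blood. When iron is scarce, iron regulatory proteins bind hairpins called iron-responsive elements (IREs). Binding near the start of a ferritin or ferroportin mRNA blocks its translation, and binding behind the coding part of the Tfrc mRNA protects it from decay. RNA levels therefore report on Tfrc more directly than on ferritin protein, which was not measured here.

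The IRE hairpins that a search matched in 4 of the 10 genes are shown because storage, export and uptake genes share this element. The search can miss elements that depart from its pattern. It matched 1 before the coding part in Fth1, Ftl1 and Slc40a1 and 4 behind it in Tfrc. Each match is a 30-base stretch of the mRNA in DNA letters, 5′ to 3′. The capitals mark the bulged C and the 6-base loop of the hairpin.
Fth1: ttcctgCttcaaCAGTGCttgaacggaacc
Ftl1: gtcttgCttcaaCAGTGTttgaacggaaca
Slc40a1: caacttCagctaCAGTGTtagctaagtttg
Tfrc element 1: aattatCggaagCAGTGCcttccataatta
Tfrc element 2: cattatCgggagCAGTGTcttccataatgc
Tfrc element 3: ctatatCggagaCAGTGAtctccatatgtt
Tfrc element 4: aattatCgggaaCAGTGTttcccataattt
The Fth1, Ftl1 and Slc40a1 elements lie in the 5′ UTR, at chr19:9982732-9982761 on the plus strand, chr7:45459778-45459807 on the minus strand and chr1:45925464-45925493 on the minus strand (GRCm38, GENCODE M21). The Tfrc elements lie in the 3′ UTR on the plus strand, at chr16:32631219-32631248, chr16:32631598-32631627, chr16:32631663-32631692 and chr16:32631710-32631739. The search was for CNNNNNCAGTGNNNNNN on the mRNA strand, with the 5 bases before and after the loop able to pair. With 1 transcript taken per gene, it was found in 169 of the 10638 tested protein-coding genes (1.59%), so a match is a description, not proof of a working hairpin. Slc11a2 is known for an IRE whose stem has an extra bulge, which this pattern cannot match, and Slc11a1, Slc25a37, Steap3, Ireb2 and Ncoa4 had no match in any transcript.

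Per length of transcript, ferritin mRNA was far above the other genes in every library. Ftl1, the light chain that helps iron form its mineral core, stood at 6190 normalized counts per kilobase in ST-HSC colonies with 4OHT and 5080 with ethanol, and at 7890 in MPP2 colonies with 4OHT and 7275 with ethanol. Fth1, the heavy chain that oxidizes incoming iron, stood at 2168 and 1218, and at 3332 and 2788, in the same libraries and unit. Next came Tfrc, between 84.5 and 145 per kilobase over the 4 libraries, and Ncoa4, between 99.3 and 108, whose ranges overlapped. Slc40a1 followed at 30.4 to 49.6, then Ireb2 at 14.9 to 17.3, Slc25a37 at 11.6 to 13.6, Slc11a2 at 6.31 to 8.48 and Steap3 at 3.71 to 5.22. Those 5 ranges did not overlap. Slc11a1 was the most variable, from 1.89 to 21.7, and its range spanned those of Ireb2, Slc25a37, Slc11a2 and Steap3.

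**Figure D1:**
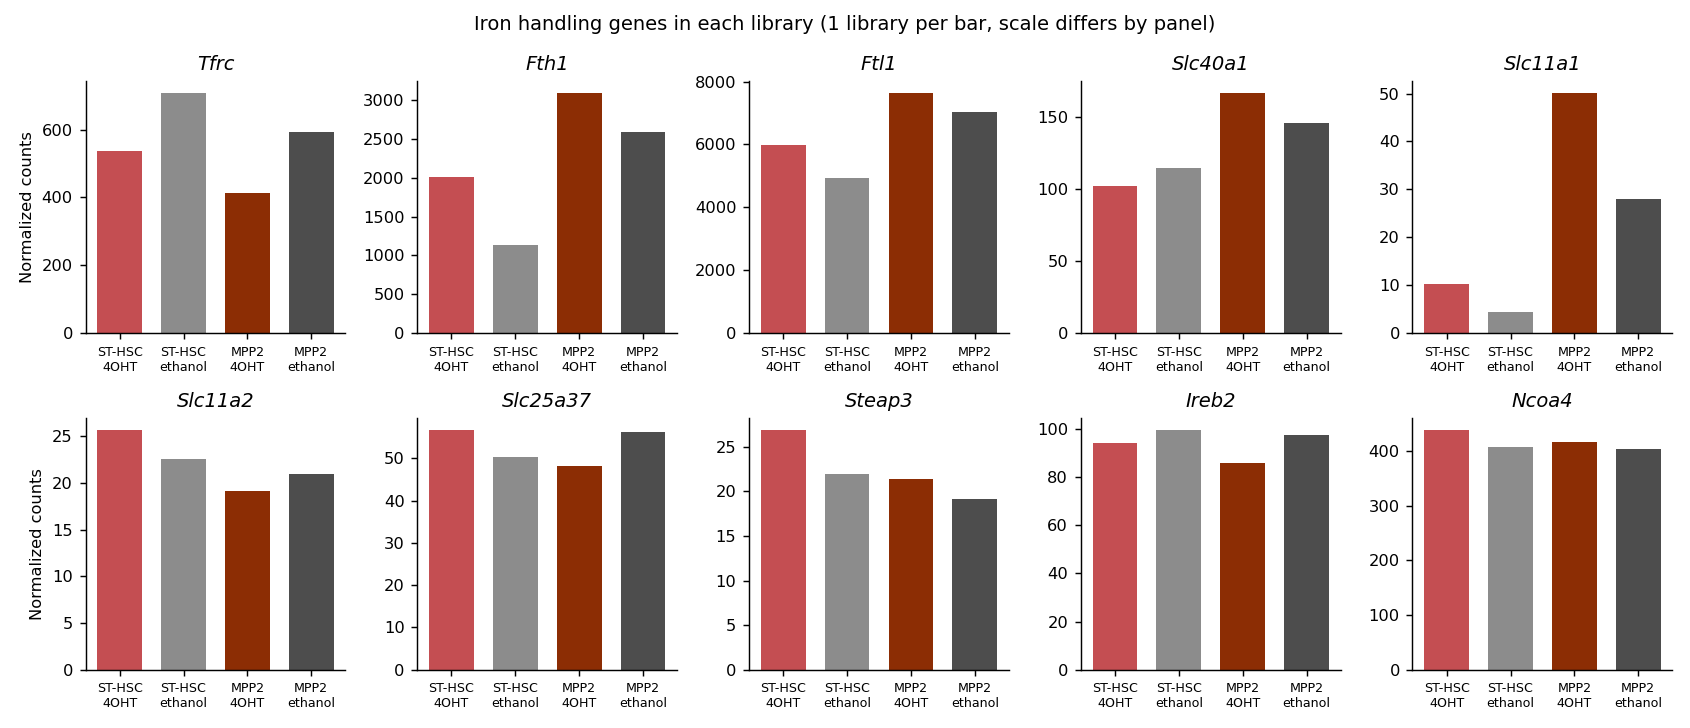
Normalized counts (vertical axis, from 0, with its own scale in each panel) of the 10 iron handling genes, with 1 bar per library. Slc11a1 spans 4.38 to 50.1 normalized counts and Fth1 1132 to 3095, while Ncoa4 stays between 404 and 439.

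On the uptake side, Tfrc carried fewer counts with 4OHT than with ethanol in both cell types. Tfrc, which encodes transferrin receptor 1, had 538 normalized counts in ST-HSC colonies with 4OHT and 708 with ethanol. In MPP2 colonies it had 413 with 4OHT and 593 with ethanol. Both 4OHT libraries lay below both ethanol libraries, as was the case for 14.3% of all tested genes. ST-HSC colonies gave a ratio of 4OHT over ethanol of 0.760, with a 95% counting interval of 0.737 to 0.783. MPP2 colonies gave 0.697 (0.673 to 0.721). These intervals, from recovered reads, cover counting error only. In a limma fit over all 4 libraries with cell type as a term, the shared log2 effect of 4OHT was -0.46 ± 0.13 (SE, adjusted p = 0.239 by limma), which does not pass 0.05. The same gene passed with a mean-variance trend in limma (adjusted p = 0.0325) and with DESeq2 on whole reads (0.0473), and had 0.0554 with edgeR. Over the 11 alternative settings its adjusted p ran from 0.0325 to 0.436. With the trend of differences on GC content removed, its log2 difference shrank to -0.24 in MPP2 colonies, against -0.52 as deposited.

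Differences were small at the endosomal and mitochondrial steps, and 0 of these 3 genes passed for 4OHT by limma, edgeR or DESeq2. Few genes passed anywhere, so 0 of 3 is near the share over all tested genes. Of those, limma called 0.0440% higher and 0.00880% lower, edgeR 2.47% and 1.86%, and DESeq2 1.03% and 0.361%. Steap3, the endosomal reductase that turns ferric into ferrous iron, had 26.9 and 21.9 normalized counts in ST-HSC colonies with 4OHT and ethanol, and 21.4 and 19.1 in MPP2 colonies. Slc11a2, the divalent metal transporter DMT1 that moves this iron out of the endosome, had 25.7 and 22.6 in ST-HSC and 19.1 and 21.0 in MPP2 colonies. Its counting interval held a ratio of 1 in both cell types, with bounds of 0.974 and 1.32 for ST-HSC colonies and of 0.763 and 1.08 for MPP2 colonies. Slc25a37, mitoferrin 1, which brings iron into mitochondria and is known for its part in red cell heme synthesis, had 56.8 and 50.3 in ST-HSC and 48.2 and 56.3 in MPP2 colonies. The sign of the 4OHT difference was thus opposite in the 2 cell types for Slc11a2 and Slc25a37, and also for Slc40a1, or 3 of the 10 genes, against 38.1% of all tested genes.

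On the storage side, ferritin counts were higher with 4OHT than with ethanol in both cell types, except for Ftl1 in MPP2 colonies once the GC trend was removed, and most of all for Fth1 in ST-HSC colonies. Of all tested genes, 30.4% were higher with 4OHT in both cell types. Fth1 had 2014 normalized counts in ST-HSC colonies with 4OHT and 1132 with ethanol, a ratio of 1.78 (1.75 to 1.81). In MPP2 colonies it had 3095 with 4OHT and 2590 with ethanol, a ratio of 1.19 (1.18 to 1.21). A larger absolute log2 difference was found for 3.82% of tested genes in ST-HSC and 39.7% in MPP2 colonies. The ST-HSC library with 4OHT lay below the MPP2 library with ethanol, so 4OHT and ethanol values overlapped across cell types. The shared log2 effect of 4OHT was 0.54 ± 0.18 (SE, adjusted p = 0.288 by limma). It passed only with DESeq2 (adjusted p = 0.0250) among 11 alternatives, whose adjusted p ran up to 0.444.

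Ftl1 had 5992 and 4918 normalized counts in ST-HSC colonies with 4OHT and ethanol, a ratio of 1.22 (1.21 to 1.23). In MPP2 colonies it had 7637 and 7043, a ratio of 1.08 (1.07 to 1.09), which fell below 1, to a log2 difference of -0.09, with the GC trend removed. Its shared log2 effect was 0.20 ± 0.13 (SE, adjusted p = 0.569 by limma). Tested genes with a larger absolute log2 difference than Ftl1 made up 26.4% in ST-HSC and 69.5% in MPP2 colonies. Of the 31-base words in Ftl1 transcripts, 64.1% also occur in other genes and 54.4% in the pseudogene Ftl1-ps1, so its counts are uncertain. The same share was 3.24% for Fth1.

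The make-up of ferritin mRNA differed with them. The Fth1 to Ftl1 ratio per length was 0.350 (95% counting interval 0.345 to 0.355) in ST-HSC colonies with 4OHT and 0.240 (0.236 to 0.244) with ethanol. In MPP2 colonies it was 0.422 (0.417 to 0.427) with 4OHT and 0.383 (0.379 to 0.388) with ethanol. It was thus highest in MPP2 colonies with 4OHT and lowest in ST-HSC colonies with ethanol, and it does not depend on how libraries are scaled to each other. Together the 2 ferritin genes took 0.816% and 0.608% of reads in ST-HSC colonies with 4OHT and ethanol, and 1.04% and 0.974% in MPP2 colonies. The ratio of summed ferritin to Tfrc mRNA, per length, was 76.0 with 4OHT and 43.5 with ethanol in ST-HSC colonies, and 133 and 83.0 in MPP2 colonies. Both ratios rest on the uncertain counts of Ftl1, which makes up most of the sum. Neither was computed with the GC trend removed, which moved the MPP2 log2 differences to -0.24 for Tfrc and -0.09 for Ftl1.

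**Figure D2:**
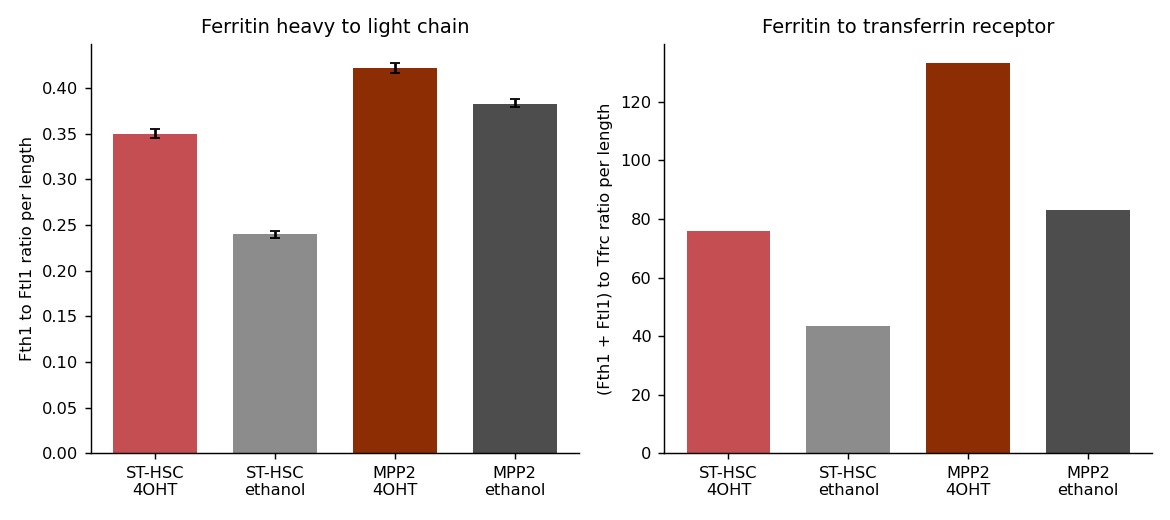
Ratio of Fth1 to Ftl1 per length (left, with 95% counting intervals) and of summed ferritin to Tfrc per length (right), with 1 bar per library. Both ratios are higher with 4OHT than with ethanol in either cell type, for instance 76.0 against 43.5 for ferritin to Tfrc in ST-HSC colonies. Both rest on the uncertain counts of Ftl1 and were not computed with the GC trend removed.

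Ncoa4, the receptor that carries ferritin to lysosomes so that its iron can be reused, varied least of the 10 genes. It had 439 and 408 normalized counts in ST-HSC colonies with 4OHT and ethanol, and 416 and 404 in MPP2 colonies. Both 4OHT libraries lay above both ethanol libraries, as for 12.2% of tested genes, but the MPP2 difference changed sign when libraries were scaled to their totals (log2 -0.02). Of its 31-base words, 18.8% occur in other genes. Ireb2, which encodes iron regulatory protein 2, one of the proteins that bind IREs, had 94.1 and 99.6 in ST-HSC colonies and 85.9 and 97.6 in MPP2 colonies, again with 4OHT first. Its log2 differences of -0.08 and -0.18 became 0.06 and 0.18 with the GC trend removed.

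Slc11a1, which moves iron out of phagosomes, was higher with 4OHT in both cell types, as were 30.4% of tested genes. Slc40a1, the gene of the exporter from cells, was lower in ST-HSC and higher in MPP2 colonies. Slc11a1, known as Nramp1, encodes a metal transporter of phagosomes in macrophages and neutrophils, and the C57BL/6 strain is known for a missense allele that disables the protein. It had 10.3 normalized counts (144 reads) in ST-HSC colonies with 4OHT and 4.38 (63 reads) with ethanol, a ratio of 2.36 (1.75 to 3.23). In MPP2 colonies it had 50.1 (625 reads) with 4OHT and 27.9 (387 reads) with ethanol, a ratio of 1.80 (1.58 to 2.04). Its shared log2 effect of 4OHT was 0.99 ± 0.15 (SE, adjusted p = 0.0921 by limma), short of 0.05. It passed in 4 of 11 alternatives, among them edgeR (adjusted p = 0.00546) and DESeq2 (0.0233), and the range over all 11 was 0.00188 to 0.259. Slc40a1 had 102 and 115 in ST-HSC colonies with 4OHT and ethanol, a ratio of 0.892 (0.830 to 0.958). In MPP2 colonies it had 167 and 146, a ratio of 1.14 (1.08 to 1.22), and its shared log2 effect was 0.02 ± 0.15 (SE, adjusted p = 0.976 by limma). With the GC trend removed its log2 differences were -0.05 and 0.46.

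Counted over the 10 genes, 4OHT against ethanol gave 1 gene at least 2-fold higher in ST-HSC colonies (Slc11a1) and 0 lower, where 2.10% and 0.545% of all tested genes passed. In MPP2 colonies 0 genes passed in either direction, against 1.32% and 1.70% of tested genes. The median log2 difference of the 10 was 0.18 in ST-HSC and 0.08 in MPP2 colonies, where all tested genes had medians of 0.00. For scale, the SD of log2 differences over all tested genes was 0.38 and 0.41. The limma fit called 0 of the 10 for a shared 4OHT effect, where 0.0440% of tested genes were called higher and 0.00880% lower. At an unadjusted p under 0.05 the limma fit held 3 (Slc11a1, Tfrc and Fth1). The share of all tested genes at that threshold was not counted, so this number has no baseline. The edgeR test called 1 of the 10, where it called 2.47% of tested genes higher and 1.86% lower. DESeq2 called 3, against 1.03% and 0.361%, and limma with a trend called 2, against 2.96% and 2.30%.

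**Figure D3:**
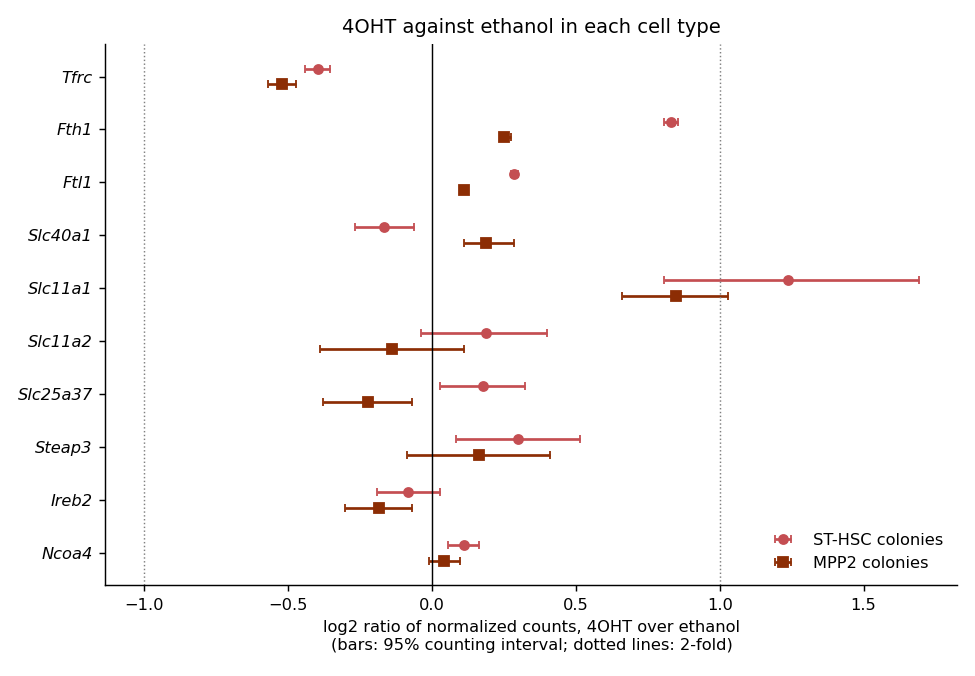
log2 ratio of normalized counts, 4OHT over ethanol (horizontal axis), for each gene in ST-HSC (circles) and MPP2 colonies (squares), with 95% counting intervals as bars and 2-fold marked by dotted lines. Tfrc lies left of 0 and Fth1, Ftl1 and Slc11a1 right of 0 in both cell types (Ftl1 in MPP2 colonies turns to -0.09 with the GC trend removed), with only Slc11a1 in ST-HSC colonies past 2-fold.

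Fth1 and Slc11a1 were higher in MPP2 than in ST-HSC colonies under both treatments. These comparisons share libraries with those above. Both MPP2 libraries lay above both ST-HSC libraries for Fth1, Ftl1, Slc40a1 and Slc11a1, as for 28.8% of tested genes, and below them for Slc11a2 and Steap3, as for 33.7%. At least 2-fold higher in MPP2 than in ST-HSC colonies were 2 of the 10 with ethanol (Slc11a1 and Fth1) and 1 with 4OHT (Slc11a1), where 6.27% and 5.39% of tested genes passed. None of the 10 was 2-fold lower in either, against 0.862% and 1.71%.

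The limma fit, which here takes the treatments as repeats, called Slc11a1 and Fth1 higher in MPP2 colonies, 2 of 10 genes where it called 9.88% of tested genes higher and 5.31% lower (1123 and 604 genes, or 606 and 135 with the GC trend removed). Slc11a1 had a log2 effect of 2.38 ± 0.15 (SE, adjusted p = 0.00259 by limma) and was called under all 11 alternatives, with adjusted p up to 0.0276. The MPP2 to ST-HSC ratio of Slc11a1 was 4.85 (4.04 to 5.85) with 4OHT and 6.37 (4.87 to 8.46) with ethanol. Fth1 had a log2 effect of 0.91 ± 0.18 (SE, adjusted p = 0.0389 by limma), and its call was lost in 5 of 11 alternatives, with adjusted p up to 0.0749. Its MPP2 to ST-HSC ratio was 1.54 (1.51 to 1.56) with 4OHT and 2.29 (2.25 to 2.33) with ethanol. Slc40a1 at 0.52 ± 0.15 (SE, adjusted p = 0.0749) and Ftl1 at 0.43 ± 0.13 (SE, adjusted p = 0.0842) did not pass by limma, while DESeq2 gave them 0.00965 and 0.00324. Slc40a1 was called in 4 of 11 alternatives, with adjusted p up to 0.120, and Ftl1 in 2, with adjusted p up to 0.154. Tfrc had -0.32 ± 0.13 (SE, adjusted p = 0.145 by limma). Of the 10 genes, edgeR called 3, where it called 16.5% of tested genes higher and 14.0% lower. DESeq2 called 4, against 8.74% and 3.98%, and limma with a trend called 4, against 16.7% and 16.4%.

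**Figure D4:**
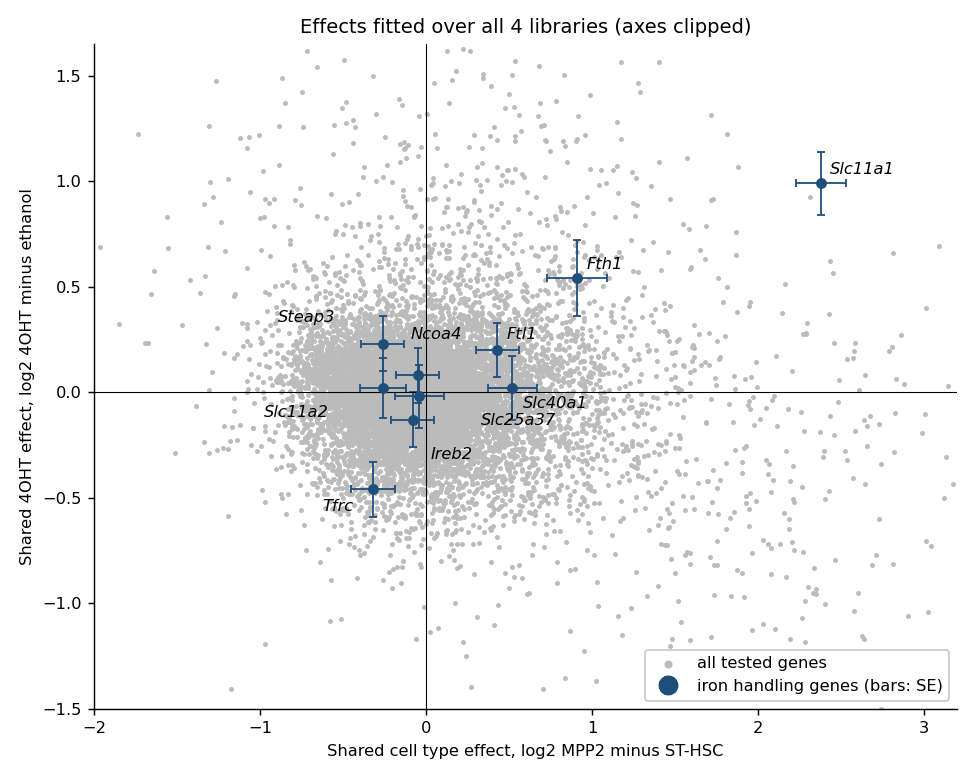
Shared cell type effect (horizontal axis, log2 MPP2 minus ST-HSC) against shared 4OHT effect (vertical axis, log2 4OHT minus ethanol) from 1 limma fit, with standard errors as bars for the 10 genes and all tested genes in grey. Slc11a1 stands apart at 2.38 and 0.99, Fth1 lies in the same direction at 0.91 and 0.54, and Tfrc lies opposite at -0.32 and -0.46.

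Sums of marker genes also differed between libraries, and the direction with 4OHT was not the same for all marker lists. Of 15 monocyte and macrophage markers, 14 were in the table, and their normalized counts summed to 3000 and 2007 in ST-HSC colonies with 4OHT and ethanol, and to 4612 and 3146 in MPP2 colonies. Of the 11 tested, 4 were at least 2-fold higher with 4OHT in each cell type and 0 were 2-fold lower, where 2.10% of all tested genes were higher in ST-HSC and 1.32% in MPP2 colonies, with C1qb and C1qc at 0 in MPP2 colonies with ethanol. Per 1000 counts of that sum, Slc11a1 stood at 3.45 and 2.18 in ST-HSC colonies with 4OHT and ethanol and at 10.9 and 8.88 in MPP2 colonies. Fth1 on that scale stood at 671 and 564 in ST-HSC but 671 and 823 in MPP2 colonies. Slc40a1 stood at 34.1 and 57.2 in ST-HSC and at 36.2 and 46.4 in MPP2 colonies. On this scale Slc11a1 was higher with 4OHT in both cell types, Fth1 in ST-HSC colonies only, and Slc40a1 in neither. Such a reading depends on which markers fill the sum, which was mostly Lyz2 (1924 and 1113 in ST-HSC, 2768 and 1692 in MPP2 colonies). Itgam, the next highest, had 4OHT ratios of 0.936 and 1.13. Mrc1 had 2.77 and 3.04, above the 2.36 and 1.80 of Slc11a1. In RNA from whole colonies, fewer cells of a type and less RNA per cell cannot be told apart.

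Neutrophil markers, 13 of 14 in the table, summed to 24388 and 32643 in ST-HSC colonies with 4OHT and ethanol, and to 42972 and 44037 in MPP2 colonies. S100a9, Ngp and S100a8 were the highest, and single members did not all follow the sum. Of the 13, 1 was higher with 4OHT in ST-HSC and 8 in MPP2 colonies, against 5605 and 5652 of 11370 tested genes. The 12 erythroid markers in the table summed to 3.38 and 3.06 in ST-HSC and to 25.6 and 164 in MPP2 colonies, with the globin gene Hbb-b1 and the red cell anion exchanger gene Slc4a1 at 0 in both ST-HSC libraries. Mast cell and basophil markers, 11 of 11 in the table, summed to 74.2 and 139 in ST-HSC and to 516 and 1600 in MPP2 colonies, with Tpsb2 and Mcpt4 at 0 in both ST-HSC libraries. Megakaryocyte markers, 10 of 10, summed to 455 and 483 in MPP2 colonies and to 28.8 and 23.4 in ST-HSC colonies. The 11 stem and progenitor markers summed to 228 and 166 in ST-HSC and 254 and 388 in MPP2 colonies, with Kit the highest in both ST-HSC libraries, where Slamf1 was at 0. Stromal, endothelial and epithelial markers, 5 of 7 in the table, summed to 74.7 and 84.8 in ST-HSC and 119 and 167 in MPP2 colonies, mostly Pecam1, which blood cells also express. The part of any of these cells in the results on iron genes was not tested.

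Kmt2a, a parent gene of the fusion, had 72.1 and 80.3 normalized counts in ST-HSC colonies with 4OHT and ethanol and 84.2 and 91.1 in MPP2 colonies, and Mllt1, the other parent, had 62.7 and 60.1, and 59.0 and 50.9. A count per gene does not separate the fusion from its parents, so induction was not checked here. Depth was 12907412 to 14317891 recovered reads per library.

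Beyond the 10 genes, 68 genes were listed in 6 groups of the wider pathway, and 53 were tested. Only Lrp1 (higher) and Tfr2 (lower), both in MPP2 colonies, differed by at least 2-fold with 4OHT, 1 of 53 in each direction where 1.32% and 1.70% of all tested genes did. Across all 53 the median log2 difference was 0.04 in ST-HSC and 0.06 in MPP2 colonies. The limma fit called 0 of them for a shared 4OHT effect. At an unadjusted p under 0.05 it held 7, again with no share over all tested genes to set beside it. The edgeR test called 3 and DESeq2 2. Of all tested genes, edgeR called 2.47% higher and 1.86% lower, and DESeq2 1.03% and 0.361%. For cell type the limma fit called 8 of the 53 higher and 4 lower in MPP2 than in ST-HSC colonies, where it called 9.88% and 5.31% of all tested genes.

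Among 12 tested genes of other uptake and endosomal transport, the median was -0.04 in ST-HSC and 0.08 in MPP2 colonies. Lrp1, a large endocytic receptor that also takes up heme bound to hemopexin, had 268 and 158 normalized counts in ST-HSC colonies with 4OHT and ethanol, and 391 and 170 in MPP2 colonies. Its ratios were 1.70 (1.61 to 1.79) and 2.31 (2.19 to 2.42), and its shared effect had an adjusted p of 0.106 by limma and 0.00167 by edgeR. Tfr2, a second transferrin receptor that senses iron in liver and erythroid cells, was scarce and lower with 4OHT, at 1.51 and 2.64 in ST-HSC and 2.41 and 5.99 in MPP2 colonies (adjusted p = 0.132 by limma). Trf, which encodes transferrin itself, had 42.6 and 67.8 in ST-HSC and 67.4 and 97.8 in MPP2 colonies (adjusted p = 0.164 by limma, 0.0120 by edgeR). Its counts are uncertain, since 63.9% of its 31-base words occur in other genes, mostly Gm20425. Slc39a14, which imports iron not bound to transferrin, had 27.2 and 18.9, and 16.7 and 12.3 (adjusted p = 0.226 by limma). Tfrc, Tfr2 and Trf were thus lower with 4OHT than with ethanol in both cell types, as were 31.4% of all tested genes. Tfr2 rests on 21 to 83 reads per library. Slc39a14, Lrp1 and Steap3 were higher in both, as were 30.4% of all tested genes. Slc39a8, of the same list as Slc39a14, had 13.9 and 16.3 in ST-HSC colonies, with a counting interval that held 1. In MPP2 colonies it had 14.1 and 18.9, a ratio of 0.747 (0.613 to 0.908).

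Genes that sense or chaperone iron stayed near level with 4OHT. Their 7 tested members had medians of -0.01 in ST-HSC and 0.17 in MPP2 colonies, and 0 passed 2-fold. Bola2, which works with a glutaredoxin in passing on iron-sulfur clusters, had log2 differences of 0.15 and 0.25, and Aco1, which encodes iron regulatory protein 1, had 0.01 and 0.25. For cell type, limma called 1 of the 7 higher (Fbxl5) and 2 lower (Glrx3 and Bola2) in MPP2 colonies, against 9.88% and 5.31% of all tested genes. Fbxl5, the iron-sensing ubiquitin ligase subunit that marks Ireb2 protein for decay, had 192 and 173 normalized counts in MPP2 colonies with 4OHT and ethanol, against 93.6 and 103 in ST-HSC colonies (log2 0.89 ± 0.14, SE, adjusted p = 0.0272 by limma). It was named after its values were seen, as were Glrx3, Nqo1 and Slc7a11.

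Of 7 other export genes, 3 were in the table and 1 was tested, Mon1a, known for bringing ferroportin to the cell surface, with log2 differences of 0.34 and 0.27. The 19 genes of mitochondrial iron and iron-sulfur cluster assembly had medians of 0.15 in ST-HSC and -0.13 in MPP2 colonies, and 0 passed 2-fold. Fdx1l, a mitochondrial ferredoxin gene, had the largest difference among them, 11.6 and 5.98 in ST-HSC but 3.53 and 4.26 in MPP2 colonies. Its counts are also uncertain, with 71.4% of its 31-base words shared with Gm38431. Isca2, a cluster carrier, had log2 differences of -0.36 and -0.24. The 4 tested mRNAs of the other known IRE genes had medians of -0.10 and 0.07, among them Epas1 (-0.16 and 0.34), the hypoxia factor HIF-2α, and Cdc14a (-0.12 and -0.24), a phosphatase.

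The 10 genes of the NRF2 and BACH1 group, transcription factors that drive or restrain ferritin, ferroportin and antioxidant genes, had medians of 0.43 in ST-HSC and 0.21 in MPP2 colonies. All tested genes had medians of 0.00, and 0 of the 10 reached 2-fold. Hmox1, heme oxygenase 1, which frees iron from heme, had 115 and 70.2 normalized counts in ST-HSC colonies with 4OHT and ethanol, and 168 and 122 in MPP2 colonies. Its ratios were 1.63 (1.51 to 1.77) and 1.37 (1.29 to 1.46), and its shared effect had an adjusted p of 0.188 by limma, 0.0136 by edgeR and 0.0282 by DESeq2. Srxn1, sulfiredoxin 1, had 57.2 and 34.9 in ST-HSC and 94.0 and 77.6 in MPP2 colonies (adjusted p = 0.278 by limma). For cell type limma called 4 of the 10 higher in MPP2 colonies, namely Nqo1, Slc7a11, Srxn1 and Hmox1, and 0 lower, against 9.88% and 5.31% of all tested genes.

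**Figure D5:**
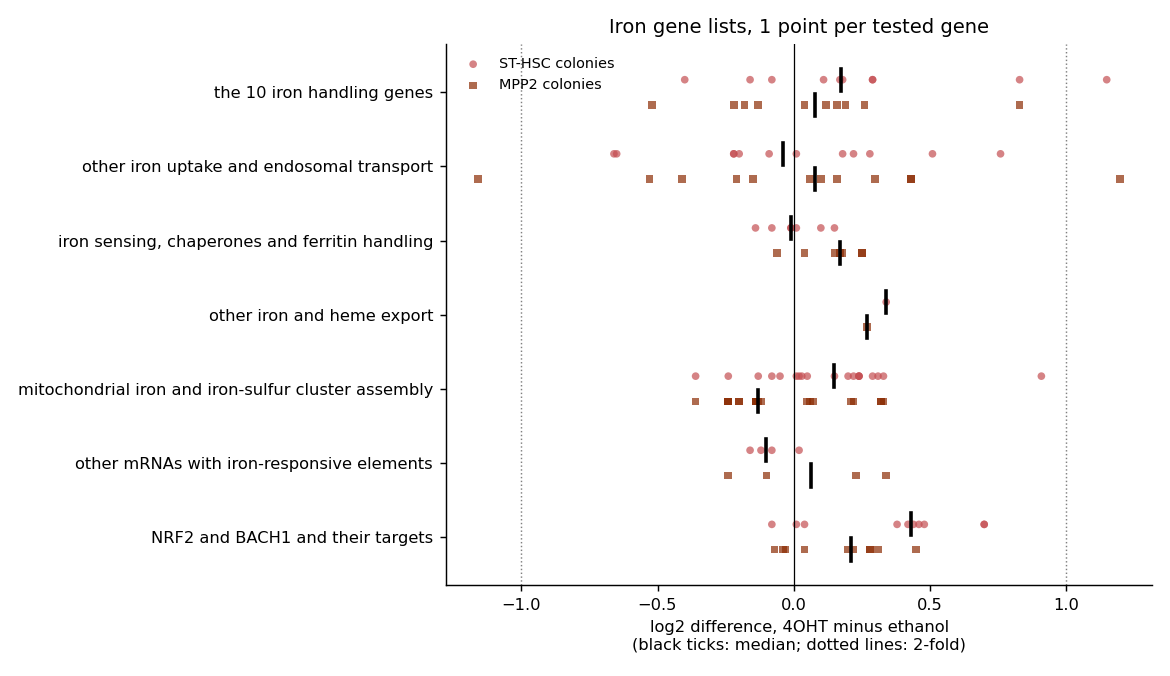
log2 difference, 4OHT minus ethanol (horizontal axis), of each tested gene in the 10 iron handling genes and 6 wider lists, for ST-HSC (circles) and MPP2 colonies (squares), with black ticks at the median and dotted lines at 2-fold. The NRF2 and BACH1 list has the medians 0.43 and 0.21, while Lrp1 and Tfr2 in MPP2 colonies are the only genes of the wider lists past 2-fold.

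Fth1 and Slc11a1 ranged most widely over the libraries, by 1.45 and 3.38 on the log2 scale. Their nearest genes by pattern were sought among the 8386 genes that averaged 10 normalized counts or more, by Euclidean distance of log2 values centred on each gene's mean. With only 4 libraries this is a description. Nearest to Fth1 were Clec4e (distance 0.08), a receptor of activated macrophages, Mpeg1 (0.08), a pore-forming protein of macrophages, and Srxn1 (0.09). Mpeg1 had 232 and 128 normalized counts in ST-HSC colonies with 4OHT and ethanol and 341 and 308 in MPP2 colonies. Nearest to Slc11a1 were Pla2g7 (0.38), an enzyme that breaks down platelet-activating factor, Mmp25 (0.60), a membrane-bound matrix metalloproteinase of neutrophils, and Atp6v0c-ps2 (0.68), a pseudogene. Pla2g7 had 5.25 and 3.06 in ST-HSC and 29.0 and 19.6 in MPP2 colonies.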

How the data were processed

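Per the labels, rRNA-depleted, strand-specific libraries were made from 200 ng of colony RNA. The tools named in the submitters' processing notes are RSEM, Bowtie2, edgeR and Trimmomatic 0.36, with build mm10, and their order is not given in the sources used here. The authors deposited a signal per gene, normalized counts: each of the 57292 values was within 1e-06 of a whole multiple of its column's smallest step (100% of values), worth 0.0695 to 0.0802, which gave whole reads. No listed gene had under 4 reads in all.

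Genes with a mean of at least 1 were tested on log2 values after adding 0.5, which shrinks differences of low genes. limma 3.58.1 fitted cell type and treatment additively, with 3 coefficients, 1 residual degree of freedom and Benjamini-Hochberg adjustment over all tested genes, so any cell-type difference in response counts as error. Ratios have exact conditional binomial 95% counting intervals. A GC value was known for 96.2% of tested genes. Alternatives were other constants, filters, scalings, GC removal, limma with trend, edgeR 4.0.16 and DESeq2 1.42.0 on whole reads. Length, GC and shared words come from GENCODE M21, with 1 APPRIS principal transcript per gene for length.

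The members, gene lists and comparisons were chosen with earlier results of these data known. Named from each wider list are genes past 2-fold and the next 2 by size, and from marker lists the highest. Markers at 0 in some libraries, Mrc1 and Slc39a8 were named after their values were seen.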

Additional observations from a re-analysis of the deposited data

Results flagged for a closer look

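Genes whose 4OHT difference pointed one way in ST-HSC colonies and the other way in MPP2 colonies numbered 3, and the difference between the cell types was not tested, since each side rests on 1 pair of libraries. Slc40a1 (ferroportin) had log2 differences of -0.16 in ST-HSC and 0.19 in MPP2 colonies, and neither counting interval held a ratio of 1. Slc25a37 (mitoferrin 1) had 0.17 and -0.22, and again neither interval held 1. Slc11a2 (DMT1) had 0.18 and -0.13, and both of its intervals held 1.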

How the results depend on the processing

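The medians of the 10 genes and their counts past 2-fold stayed within counting error or the same count under the 8 settings that change the difference itself, though the median between MPP2 and ST-HSC colonies with 4OHT, -0.104, turned to 0.020 with GC removal. Counts from the fits did not. For a shared 4OHT effect, 5 genes were called higher and 1 lower, against 0 and 0 with a constant of 0.1, no filter, total, median-of-ratios or upper-quartile scaling, or GC removal, 73 and 19 with a constant of 1, 162 and 68 with a filter of 5, 337 and 261 with limma trend, 281 and 211 with edgeR, and 117 and 41 with DESeq2. Of the 10 genes, 0 were called, against 1 with the filter of 5, 2 with trend, 1 with edgeR and 3 with DESeq2. For cell type, 1123 were called higher and 604 lower, against 674 and 178 with a constant of 0.1, 490 and 69 unfiltered, 606 and 135 with GC removal, 1899 and 1862 with trend, and 1873 and 1589 with edgeR. The higher and lower counts were 1387 and 964 with a constant of 1, 1324 and 1395 with a filter of 5, 972 and 394 with median-of-ratios scaling, and 904 and 394 with upper-quartile scaling. Of the 10 genes, 2 were called, against 1 with a constant of 0.1, unfiltered, total or upper-quartile scaling or GC removal, and 4 with the filter of 5, trend or DESeq2. Changing sign were the shared 4OHT effects of Slc40a1 with total scaling (log2 -0.007), Slc11a2 (-0.035) and Ireb2 (0.122) with GC removal, and the cell type effect of Slc25a37 with GC removal (0.009). The cause was not tested. Replicates could not be paired, because the labels carry no replicate numbers and each group has 1 library. Through its cell type term, the limma fit compared 4OHT with ethanol within each cell type. Counting intervals were widest for Slc11a1, with 63 reads in ST-HSC colonies with ethanol.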
